A study of Mus musculus with 5 samples.

Results

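The cartilage matrix genes described here are 9 genes chosen by name: Col2a1, Col11a2, Col9a1, Col9a2, Col9a3, Acan, Hapln1, Matn3 and Cnmd, out of 31055 genes counted in the files. The choice was made with earlier results of these data known. The 9 genes were followed in 29493 Prx1-derived cells of mouse hindlimb skeletal muscle by droplet single-cell RNA sequencing. The mice were young adults of genotype Prx1Cre;mTmG on a C57Bl/6 background. In these mice Prx1-driven Cre, active in limb mesenchyme, switches a membrane Tomato reporter to membrane GFP, and the mark is passed on to all descendants. GFP+ cells were sorted from the muscle around the tibia, without periosteum or bone marrow. There were 5 conditions: uninjured (d0), d3 and d5 after non-stabilized tibial fracture, and d3 and d5 after polytrauma, in which the fracture is combined with injury of the adjacent muscle. Each condition has 1 library made from 2 pooled mice, so no difference between conditions could be tested. Intervals below are exact 95% intervals that cover counting error only, and a fixed fold of 4 replaces a test. Where a count of 0 is said to allow a share or level, that limit is the one of 3 counts. It lies somewhat below the exact limit. The reporter matched the sort in every library, with EGFP at 1805 to 2821 CPM (a gene's UMI counts scaled to the same total in every library, 1000000) and 0 to 2 UMIs of tdTomato.

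Hyaline cartilage is built on thin fibrils in which collagen II is the main component, with collagen XI inside the fibril and collagen IX bound to its surface. Aggrecan, a large chondroitin sulfate proteoglycan, binds hyaluronan through link protein and holds water in this network. Matrilins bridge fibrils and proteoglycans, and chondromodulin is an inhibitor of vessel growth found in avascular cartilage. SOX9, with SOX5 and SOX6, drives most of these genes. In a fracture that is not held stable, the callus passes through such a cartilage stage before bone forms.

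The deposited labels of 2 libraries go against the cell numbers of the study. These conditions were therefore exchanged here: what is called d3 polytrauma below carries the label of d5 fracture, and what is called d5 fracture carries that of d3 polytrauma. The library used as d5 fracture lists 2001 barcodes before filtering and the one used as d3 polytrauma 6915. The first of these is exactly the cell total that the source data of the study give for d5 after fracture. The exchange rests on cell numbers and not on any gene. With the conditions as deposited, the values given below for d5 fracture would be those of d3 polytrauma and the reverse, so every statement that sets these 2 conditions against others depends on this choice. The libraries differed in depth, with a median of 3640 UMIs per cell at d0, 17963 at d3 fracture, 15688 at d3 polytrauma, 34949 at d5 fracture and 16046 at d5 polytrauma, in 4632, 5589, 6201, 1468 and 11603 cells. Both d5 libraries use a set of cell barcodes that has almost no barcode in common with the d0 and d3 libraries (0 to 3 for each pair), so day and library preparation cannot be told apart. Of the d5 fracture cells, 869 (59.2%) have a barcode that the d5 polytrauma files list too, with a median of 48.6 times as many UMIs in d5 fracture. The 338 d5 polytrauma barcodes of this kind that passed the filters were left out. Without its shared barcodes the d5 fracture library keeps 599 cells with a median of 19075.0 UMIs, against 42462.0 in the shared ones.

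All 9 genes are protein coding and their positions are those of GENCODE M21 on GRCm38, the build of the files. Col2a1, the chain of collagen II, lies on the minus strand of chromosome 15 from 97975602 to 98004695. Col11a2, a chain of collagen XI, lies on chromosome 17 from 34039437 to 34066685. The 3 chains of collagen IX are on 3 chromosomes: Col9a1 on chromosome 1 from 24177610 to 24252684, Col9a2 on chromosome 4 from 121039385 to 121055322 and Col9a3 on chromosome 2 from 180597790 to 180622189. Acan, which encodes aggrecan, is on chromosome 7 from 79053483 to 79115099, and Hapln1, which encodes link protein, on chromosome 13 from 89539796 to 89611652. Matn3, for matrilin-3, is on chromosome 12 from 8947929 to 8972028, and Cnmd, for chondromodulin, on the minus strand of chromosome 14 from 79637690 to 79662170. Col9a3 overlaps Tcfl5 and Hapln1 overlaps the pseudogene Gm8546, both on the other strand. The other 7 overlap no annotated gene.

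Promoter windows of 300 bases (250 before and 50 after the start, RefSeq, GRCm38.p6) were at hand for 7 of the 9 genes, in 8 windows since Col9a1 has 2 starts, which counts from the 3′ end cannot tell apart. RefSeq start sites can differ from the GENCODE gene start. The windows were searched on both strands for the motif ACAAT, a core bound by SOX proteins, for the longer core ACAAAG bound by many of the same family, and for the TATA box as TATAAA. These motifs do not overlap in the windows shown. ACAAT stood in 1 of the 8 windows against 31.0% of all 32851 windows of the same length, ACAAAG in 0 against 18.7%, and TATAAA in 1 against 13.6%. The 3 windows below are shown because they hold these matches, in Hapln1 and Col11a2, or the highest share of G and C of the 8, in Acan at 74.0% against a median of 52.7% over all windows. Capitals mark the matches, no other letters are in capitals, and each sequence reads 5′ to 3′ along the gene.
Hapln1 (chr13:89540386-89540685, plus strand, ACAAT in capitals, 249 bases before the start): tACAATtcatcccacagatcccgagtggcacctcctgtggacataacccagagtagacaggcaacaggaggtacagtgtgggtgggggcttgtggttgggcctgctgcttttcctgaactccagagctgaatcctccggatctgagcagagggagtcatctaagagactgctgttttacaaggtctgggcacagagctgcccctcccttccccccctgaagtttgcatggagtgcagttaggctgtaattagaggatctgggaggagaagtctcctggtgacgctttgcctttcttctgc
Col11a2 (chr17:34038888-34039187, plus strand, TATAAA in capitals, 143 bases before the start): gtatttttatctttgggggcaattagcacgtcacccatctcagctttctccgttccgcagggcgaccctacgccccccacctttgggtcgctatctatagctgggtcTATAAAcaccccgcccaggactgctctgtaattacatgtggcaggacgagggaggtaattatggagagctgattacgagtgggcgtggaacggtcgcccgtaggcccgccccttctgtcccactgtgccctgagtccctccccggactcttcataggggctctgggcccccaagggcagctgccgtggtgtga
Acan (chr7:79052976-79053275, plus strand, no match): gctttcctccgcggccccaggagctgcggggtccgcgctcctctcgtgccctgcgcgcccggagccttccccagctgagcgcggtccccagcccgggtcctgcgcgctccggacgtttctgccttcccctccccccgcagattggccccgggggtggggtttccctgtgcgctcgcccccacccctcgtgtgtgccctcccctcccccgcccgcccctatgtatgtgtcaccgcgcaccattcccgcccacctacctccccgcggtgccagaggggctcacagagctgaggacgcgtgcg

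The fibril collagens were low in uninjured muscle and lower still at d3, and at d5 both were high after fracture but Col2a1 alone was above its d0 level after polytrauma. Col2a1 stood at 7.80 CPM at d0, 0.870 at d3 fracture, 0.106 at d3 polytrauma, 1525 at d5 fracture and 72.1 at d5 polytrauma. These are sums over a library, where fewer cells of a kind and less RNA per cell cannot be told apart. Col11a2 stood at 23.5 CPM at d0, above Col2a1 there (95% interval 21.3 to 25.9 against 6.54 to 9.23), then 1.07 and 0.804 at d3 fracture and d3 polytrauma, and 163 and 8.74 at d5 fracture and d5 polytrauma. The order of the 5 libraries was the same for Col2a1, Hapln1 and Cnmd, with d5 fracture first, then d5 polytrauma, d0, d3 fracture and d3 polytrauma. Col9a2 had this order too, but its d5 polytrauma and d0 levels lay close together, as given below.

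The 3 chains of collagen IX, which form 1 heterotrimer, were uneven before injury and closer together at both d3 and d5. At d0 Col9a2 had 192 UMIs (11.0 CPM), Col9a3 14 (0.803 CPM) and Col9a1 2 (0.115 CPM). At d3 fracture they stood at 1.68, 0.901 and 1.99 CPM, and at d3 polytrauma at 0.416, 0.271 and 0.455. At d5 fracture the levels were 155 CPM for Col9a2, 357 for Col9a3 and 206 for Col9a1, and at d5 polytrauma 12.4, 17.4 and 10.9. The Col9a2 levels of d0 and d5 polytrauma lay close together, with intervals of 9.51 to 12.7 and 11.9 to 12.9 CPM.

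Acan was higher at d3 fracture than at d0, unlike the fibril collagens. It stood at 4.01 CPM at d0, 30.8 at d3 fracture, 4.85 at d3 polytrauma, 681 at d5 fracture and 79.6 at d5 polytrauma. It was the highest of the 9 genes at d3 in both injuries, and at d5 polytrauma it stood above Col2a1 (78.4 to 80.8 against 71.0 to 73.3 CPM). A UMI stands for 1 captured molecule whatever the length of the transcript, so these levels are not divided by length, although capture can differ between genes. Its partner Hapln1 did not accompany it from d0 to d3 fracture. Hapln1 stood at 0.746 CPM at d0, and at 0.170 and 0.0194 at d3 fracture and d3 polytrauma (17 and 2 UMIs). At d5, where both genes were higher than at d3, it stood at 205 CPM in fracture and 13.7 in polytrauma.

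Matn3 and Cnmd were lower at d3 than at d0, as the fibril collagens were. Matn3 stood at 8.95 CPM at d0, 2.31 and 0.745 at d3 fracture and d3 polytrauma, and 185 and 7.91 at d5 fracture and d5 polytrauma. Cnmd stood at 1.84 CPM at d0, 0.470 and 0.0581 at d3, and 143 and 4.93 at d5, in the same order of conditions. At d5 polytrauma Matn3 lay near its d0 level (7.52 to 8.30 against 7.60 to 10.5 CPM). The plot of levels by library shows all 9 genes on one axis.

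**Figure D1:**
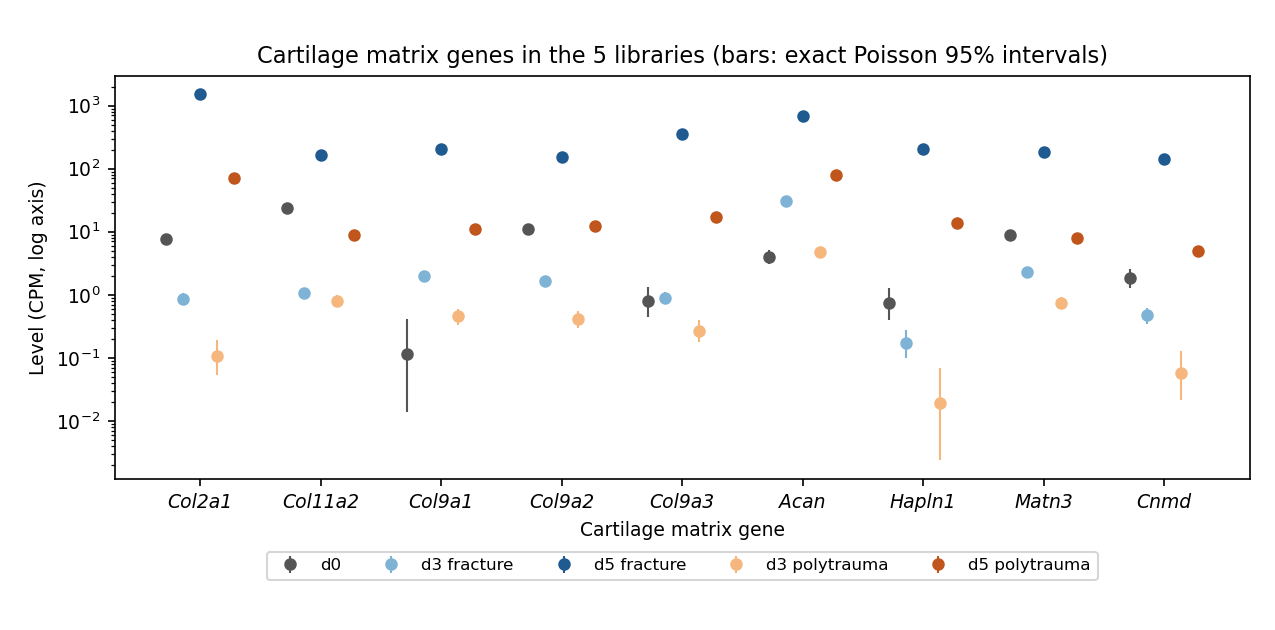
Level of each of the 9 cartilage matrix genes in CPM (log axis) in the 5 libraries, 1 point per library with exact Poisson 95% intervals. The d5 fracture point is the highest for all 9 genes, and Acan lies above its d0 level at d3 fracture (30.8 against 4.01 CPM) where Col2a1 and Col11a2 lie below theirs.

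The libraries were then compared in pairs. From d0 to d3 fracture, 2 of the 9 genes were at least 4-fold higher, against 4.40% of the 15784 genes compared, and 4 were at least 4-fold lower, against 17.1%. The 2 were Col9a1, 17.4-fold higher on 2 UMIs at d0 (4.74 to 144), and Acan, 7.67-fold higher (6.05 to 9.86). Col11a2 (22.0-fold), Col2a1 (8.96-fold), Col9a2 (6.55-fold) and Hapln1 (4.38-fold) were lower at d3 fracture. Cnmd (0.256 times the d0 level) and Matn3 (3.87-fold lower) lay just short of the limit, and the interval of Col9a3 included 1 (1.12-fold, 0.635 to 2.13). Over all genes the log2 ratio had a median of -0.50 in this pair, and Hapln1 no longer passed the limit once the libraries were scaled by the median of ratios (log2 ratio -1.64). Markers of other cells differed too, with 4 of 6 tenocyte, 3 of 6 mural and 4 of 5 osteoblast markers at least 4-fold lower at d3 fracture, and their part in the result was not tested.

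At d3, polytrauma lay below fracture for all 9 genes. Of these, 6 were at least 4-fold lower, against 0.842% of 16273 genes, and 0 were higher by as much, against 1.99%. The largest differences were those of Hapln1 (8.78-fold lower, on 2 UMIs at d3 polytrauma), Col2a1 (8.17-fold) and Cnmd (8.10-fold), and the smallest that of Col11a2, at 0.751 times the fracture level (0.557 to 1.01). Acan was 6.35-fold lower, on 501 UMIs against 3077. Col2a1 and Hapln1 stood first because of 1 d3 fracture cell, described below, without which they were 4.98-fold and 5.17-fold lower, after Cnmd and Acan (6.26-fold). Over all genes the median log2 ratio was -0.01. Markers of other cells differed as well, with 6 of 6 hematopoietic markers higher (2 at least 4-fold, median 3.33-fold) and 4 of 4 myogenic markers higher (2 at least 4-fold, median 5.36-fold). The mural median was 2.59-fold lower. Of the 6 tenocyte markers 0 were higher, with a median 1.48-fold lower. The part of these markers was not tested.

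From d3 to d5 after fracture all 9 genes were at least 4-fold higher, against 15.4% of 16317 genes, and 0 were lower by as much, against 1.57%. Col2a1 was 1751-fold higher (1420 to 2187), Hapln1 1203-fold (751 to 2067), Col9a3 397-fold, Cnmd 305-fold and Col11a2 152-fold. Col9a1 (1.99 to 206 CPM), Col9a2 (92.3-fold) and Matn3 (80.2-fold) came next, and Acan, already present at d3, was 22.1-fold higher (21.3 to 23.0). These sizes rest in part on the cells with shared barcodes, for without barcodes found in more than 1 library Col2a1 was 626-fold higher (505 to 786), Hapln1 363-fold (225 to 626), Col9a3 186-fold, Matn3 31.4-fold and Acan 15.1-fold. The 9 genes had a median log2 ratio of 7.25 and all genes one of 0.74. All 6 mural markers were at least 4-fold higher as well, though 2 of 6 with scaling by the median of ratios. So were 1 of 6 tenocyte and 2 of 5 osteoblast markers, while 1 osteoblast marker was at least 4-fold lower, and their part was not tested.

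From d3 to d5 after polytrauma all 9 genes were likewise at least 4-fold higher, against 7.74% of 17235 genes, and 0 were lower, against 3.10%. Hapln1 was 707-fold higher on 2 UMIs at d3 (196 to 5844) and Col2a1 677-fold (378 to 1357). The smallest ratios were those of Acan (16.4-fold), Col11a2 (10.9-fold) and Matn3 (10.6-fold). The median log2 ratio was 4.90 for the 9 genes and 0.46 for all genes. Of the markers of other cells, 2 of 5 osteoblast and 1 of 6 tenocyte markers were at least 4-fold higher, and 2 of 4 myogenic and 1 of 6 hematopoietic markers lower, and their part was not tested.

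At d5 all 9 genes were at least 4-fold lower in polytrauma than in fracture, against 5.24% of 17139 genes, and 0 were higher, against 0.916%. Cnmd was 29.1-fold lower, Matn3 23.5-fold, Col2a1 21.1-fold, Col9a3 20.6-fold, Col9a1 19.0-fold and Col11a2 18.6-fold. Hapln1 (14.9-fold), Col9a2 (12.5-fold) and Acan (8.56-fold) differed least. Without the barcodes found in more than 1 library the median log2 ratio of the 9 genes went from -4.25 to -3.06 and all 9 stayed past the limit, with Col2a1 at 542 CPM in d5 fracture and 7.52-fold lower in polytrauma, Hapln1 4.64-fold and Cnmd 14.8-fold. Of the mural markers 5 of 6 were at least 4-fold lower in polytrauma too, as were 1 of 5 osteoblast, 1 of 5 endothelial and 1 of 6 tenocyte markers. Among 3 myogenic markers 1 was at least 4-fold higher. The part of these markers was not tested. In the 338 barcodes left out of d5 polytrauma, which had a median of 1261.50 UMIs there, Col2a1 stood at 1682 CPM, close to the d5 fracture level.

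Levels over a library do not say which cells hold the RNA, so cells were next grouped by marker genes. To compare cells at 1 depth, 2000 UMIs were drawn from each cell, and a cell was counted with a marker list when at least 2 of its genes were detected. In d0, 448 of 3888 cells had at least 2 tenocyte markers (Scx, Tnmd, Kera, Mkx, Thbs4 and Fmod), 96 of them with exactly 2 and 674 further cells with 1. Of the UMIs in the 3888 cells, these 448 held 93.3% for Col11a2, 87.7% for Col2a1, 97.4% for Matn3 and 78.1% for Cnmd. Col11a2 was detected in 86 of them (19.2%, 15.7 to 23.2), Col2a1 in 41 (9.15%, 6.65 to 12.2) and Matn3 in 31 (6.92%). As background, cells with at least 2 mural markers, of nearly the same depth (median 4394.00 against 4443.50 UMIs), had Col2a1 in 0 of 443, which allows a share of up to 0.677%, Col11a2 in 8 (1.81%) and Matn3 in 1.

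Col9a2 was not concentrated in the cells with tenocyte markers at d0, which held only 6.11% of its UMIs. Cells with at least 2 mesenchymal progenitor markers (Prrx1, Pdgfra, Ly6a, Cd34, Cxcl12 and Dpt) were 2747 of the 3888 cells. They held 70.0% of the Col9a2 UMIs, close to their share of the cells. Col9a2 was detected in 45 of them (1.64%) against 6 of 448 (1.34%) with tenocyte markers, so the share of cells did not stand out in either. In the mural background it was in 1 of 443 cells (0.226%).

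**Figure D2:**
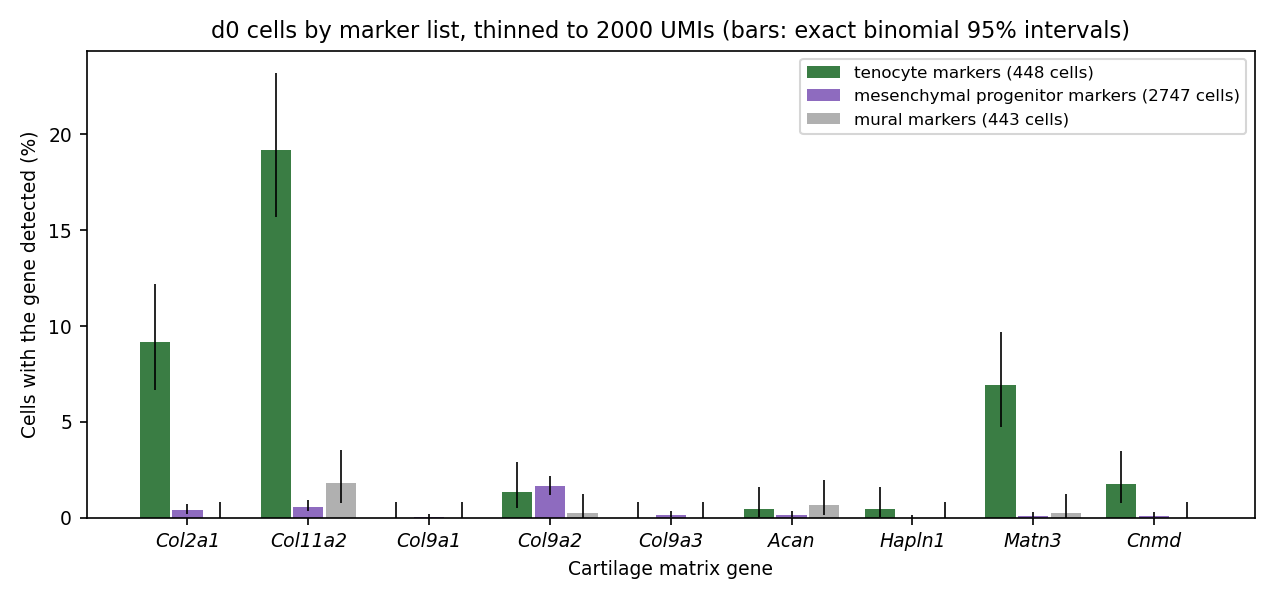
Share of d0 cells, in percent, in which each cartilage matrix gene was detected after 2000 UMIs were drawn per cell, for cells with at least 2 tenocyte, mesenchymal progenitor or mural markers (bars, with exact binomial 95% intervals). Col11a2, Col2a1 and Matn3 stand highest in cells with tenocyte markers, at 19.2%, 9.15% and 6.92%.

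Within these d0 cells the genes were paired unevenly. Of 33 d0 cells with Matn3, 17 (51.5%, 33.5 to 69.2) also had Col11a2, against 2.55% of all d0 cells. Among the cells with tenocyte markers Col11a2 was more common, as given above, than over all d0 cells. Of 48 cells with Col2a1, 20 (41.7%, 27.6 to 56.8) had Col11a2 but 3 (6.25%, 1.31 to 17.2) had Matn3. None of the 48 had Acan (upper limit 7.40%), and none of the 18 cells with Acan had Col2a1, Col11a2 or Matn3 (upper limit 18.5% for each). Over all d0 cells Acan was in 0.463%, Col2a1 in 1.23%, Col11a2 in 2.55% and Matn3 in 0.849%. With shares this low, none would be likely in so few cells, so these counts cannot show whether Acan was apart from the other genes. At least 2 of the 9 genes were found in 44 d0 cells (1.13%), and at least 5 in 0 of 3888, which allows a share of up to 0.0772%.

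The 44 d0 cells with at least 2 of the genes were high in tendon genes, and 40 of them had tenocyte markers. Fmod, of the tenocyte list, stood at 15716 CPM in them against 678 in the 3651 cells with none of the 9 genes. Tnmd, for tenomodulin, stood at 3659 against 295 CPM, Kera at 1989 against 108 and Col1a1 at 30864 against 2281. Chad, which encodes chondroadherin, stood at 4386 against 180 CPM. Fmod and Chad also stand in the list of other cartilage matrix genes used below, so neither sets tendon apart from cartilage. Sox9 stood at 56.8 CPM (18.4 to 133) against 64.9 (59.2 to 71.0). The progenitor genes Ly6a (90.9 against 1032) and Cd34 (79.5 against 709) were lower. The osteoblast gene Bglap2 was found in 2 of the 44 cells.

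At d3 Acan was the gene most often found alone. At least 1 of the 9 genes was detected in 315 of 5364 d3 fracture cells (5.87%), and in 223 of the 300 cells with exactly 1 gene that gene was Acan. At d3 polytrauma 90 of 6118 cells (1.47%) had at least 1, and 45 of them had Acan alone. Acan was detected in 4.38% of d3 fracture cells (3.85 to 4.96) and in 0.768% at d3 polytrauma (0.565 to 1.02), against 0.463% at d0 (0.275 to 0.731). At least 2 of the genes were found in 15 d3 fracture cells (0.280%) and 2 d3 polytrauma cells (0.0327%).

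Acan at d3 was found in cells of several marker lists, with the highest share of those given here in cells with tenocyte markers. Acan was in 48 of 375 d3 fracture cells with tenocyte markers (12.8%, 110 CPM), in 92 of 2490 with mesenchymal progenitor markers (3.69%) and in 4 of 74 with mural markers (5.41%, 1.49 to 13.3), whose median depth was 5214.00 against 18387.5 UMIs. The Acan share over all d3 fracture cells was thus not above that of mural cells. The mural share rests on 4 cells, and its interval also takes in the tenocyte share. At d3 polytrauma it was in 12 of 262 cells with tenocyte markers (4.58%) and in 16 of 3941 with progenitor markers (0.406%). In the few cells with at least 2 hematopoietic markers, 15 and 75, it was in none, which in the 75 allows up to 4.00%. The 223 cells with Acan alone had Sox9 at 141 CPM against 88.1 in cells with none of the genes, Fmod at 453 against 125, and Thbs4 at 659 against 230.

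A single d3 fracture cell stood apart from the rest. It held 114 UMIs of the 9 genes among its 33580 UMIs, where the next cell held 49. Col2a1 had 34 UMIs in it, 39.1% of all those of the library, with 43 of Acan, 21 of Col9a3 and 7 of Hapln1. It had 118 UMIs of EGFP. It was singled out after its values were seen. Without it Col2a1 was 14.7-fold and Hapln1 7.45-fold lower at d3 fracture than at d0, and 2874-fold and 2045-fold higher at d5 than at d3 fracture.

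By d5 the genes were found together. For d5 cells 10000 UMIs were drawn per cell, which kept 1370 cells of fracture and 9214 of polytrauma. Of the d5 fracture cells, 130 (9.49%) had all 9 genes, more than had 5 (39 cells), 6 (32), 7 (20) or 8 (39). The same rise at the end was seen at d5 polytrauma, where 55 cells (0.597%) had all 9 genes and 9, 4, 7 and 17 cells had 5, 6, 7 and 8. At least 7 genes were found in 189 d5 fracture cells (13.8%) and 79 d5 polytrauma cells (0.857%). Among the 507 d5 fracture cells without a shared barcode 25 had all 9 genes (4.93%, 3.22 to 7.19) and 48 had at least 7 (9.47%, 7.06 to 12.4). All 9 were found in 12.2% of the 863 with one (10.1 to 14.5). At the other end, 200 of the fracture cells (14.6%) and 6292 of the polytrauma cells (68.3%) had none. These shares rest in part on single UMIs, for which background is given below. With a gene counted from 2 UMIs, 571 fracture cells (41.7%) and 7898 polytrauma cells (85.7%) had none.

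**Figure D3:**
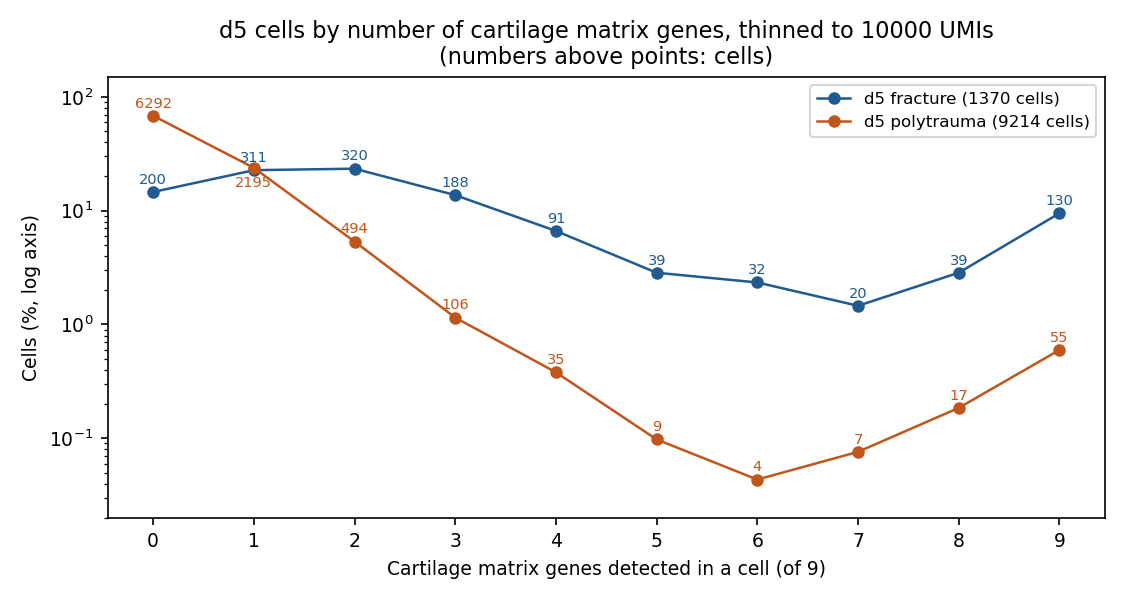
Share of d5 cells (percent, log axis) by the number of the 9 cartilage matrix genes detected after 10000 UMIs were drawn per cell, with the number of cells above or below each point. Both libraries have more cells with all 9 genes (130 and 55) than with 6 (32 and 4).

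Col2a1 was the most concentrated of the 5 collagen genes in both d5 libraries. In d5 fracture 203 of 1468 cells had at least 10 Col2a1 UMIs, a further 58 had 5 to 9, and the 203 held 97.7% of all Col2a1 UMIs, with a median of 217 and a highest value of 2455 UMIs per cell. In d5 polytrauma 97 of 11603 cells had at least 10 and held 95.3%. The 50% point of the Col2a1 UMIs was reached with 35 cells of d5 fracture and 22 of d5 polytrauma. Acan was spread more widely, reaching this point with 82 and 284 cells, and had at least 10 UMIs in 564 (38.4%) and 350 (3.02%) cells.

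Low counts of Col2a1 were common in d5 fracture and need the background beside them. At full depth 1058 of 1468 cells (72.1%) had at least 1 Col2a1 UMI, and after 2000 UMIs were drawn 297 of 1438 had (20.7%). In cells with at least 2 mural markers it was in 4 of 42 (9.52%, median depth 19641.0 against 35427.5 UMIs for all), and 4 of the 42 had at least 2 of the genes. Cspg4, which stands in the mural list, is itself high in the cartilage gene cells, as given below. At d5 polytrauma Col2a1 was in 1.58% of all cells and in 0 of 86 cells with mural markers, which allows up to 3.49%.

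Acan was common in cells with the other genes at d5. In d5 fracture Acan was found in 300 of 327 cells with Matn3 (91.7%), 249 of 277 with Cnmd (89.9%) and 455 of 595 with Col2a1 (76.5%), against 65.7% of all cells. Col2a1 was found in 455 of 900 cells with Acan (50.6%), against 43.4% of all cells. At d5 polytrauma Acan was in 181 of 333 cells with Col2a1 (54.4%), against 21.3% of all cells, and Col2a1 in 181 of 1965 with Acan (9.21%, 7.97 to 10.6), against 3.61%. The paired shares differ in size because Acan was found in more cells than Col2a1. Of the 2195 polytrauma cells with exactly 1 of the genes, 1330 had Acan (60.6%) and 310 had Col9a2 (14.1%). In d5 fracture 139 of the 311 such cells had Acan and 76 had Col2a1.

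The 1330 d5 polytrauma cells with Acan alone had higher levels of several tendon and matrix genes than the 6292 without any of the 9 genes. Thbs4 stood at 1095 against 348 CPM, Fmod at 167 against 44.5, Comp at 191 against 43.9, Scx at 81.4 against 22.5 Col11a1 at 256 against 116 and Prg4, which encodes lubricin, at 540 against 225. Has2, which encodes a hyaluronan synthase, was lower, at 134 against 163 CPM. Sox9 stood at 155 against 116 CPM. In d5 fracture the 139 Acan-alone cells had Prg4 at 72.7 against 71.5 CPM, Scx at 36.7 against 4.00 and Sox9 at 287 against 132.

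Correlations across cells are a description, since all cells of a library share its depth and background. Across the 1370 d5 fracture cells log2(UMIs + 1) of Col2a1 had a Pearson's r of 0.89 with Col9a3, 0.88 with Col11a2, 0.87 with Hapln1 and Matn3, 0.85 with Col9a1, 0.79 with Cnmd, 0.73 with Col9a2 and 0.67 with Acan. Across the 9214 d5 polytrauma cells the highest was with Hapln1 (0.87), the lowest with Acan (0.46). Within the cells that had at least 7 of the genes Matn3 stood out at polytrauma, where its r with Col2a1 was 0.24 over 79 cells, against 0.73 over 189 cells of d5 fracture.

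Genes outside the set were followed along the number of cartilage matrix genes per cell. The lower steps rest in part on single UMIs of the 9 genes. Sox9, the transcription factor that drives cartilage genes, was found in 44.5% of d5 fracture cells with 0 of the genes, 68.2% with 1, 74.2% with 2 or 3, 89.5% with 4 to 6 and 96.8% with 7 to 9. At d5 polytrauma it was found in 52.0%, 59.4%, 66.8%, 85.4% and 92.4%. Its level at 7 to 9 genes was 797 CPM in fracture and 403 in polytrauma. Sox6 was found in 34 of 162 fracture cells with 4 to 6 genes and in 64.6% with 7 to 9, and in 18.8% and 69.6% of the polytrauma cells.

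Other cartilage genes differed in the step at which they became common. Col11a1, the partner chain of Col11a2, was already in 42.5% of d5 fracture cells with none of the 9 genes and in 100% at 7 to 9. Scrg1 went from 14.2% at 4 to 6 genes to 74.1% at 7 to 9, Fgfr3, a receptor that restrains chondrocyte division, from 7.41% to 60.3%, and Ucma, a secreted cartilage protein, from 11.7% to 66.7%. In polytrauma the same steps were 10.4% to 86.1% for Scrg1, 10.4% to 67.1% for Fgfr3 and 6.25% to 55.7% for Ucma. Scrg1, Fgfr3 and Ucma are among the 10 genes most correlated with the set in the same d5 fracture cells, as given below. Their rise in fracture is thus not a separate result.

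The progenitor genes Cd34 and Ly6a were less often found in cells with more of the 9 genes. Cd34 was in 65.0% of d5 fracture cells with none of the genes, 47.9% with 1, 26.8% with 2 or 3, 14.8% with 4 to 6 and 5.82% with 7 to 9. Ly6a went from 85.0% to 27.0% over the same steps. Pdgfra, another progenitor marker, changed less up to 4 to 6 genes. It was in 66.5%, 67.8%, 59.4% and 54.3% of these cells, and in 19.0% with 7 to 9. At d5 polytrauma Cd34 went from 28.5% to 3.80% and Ly6a from 71.7% to 44.3%. Col1a1 stayed in every cell with 7 to 9 genes, at 17100 CPM in fracture and 5856 in polytrauma.

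**Figure D4:**
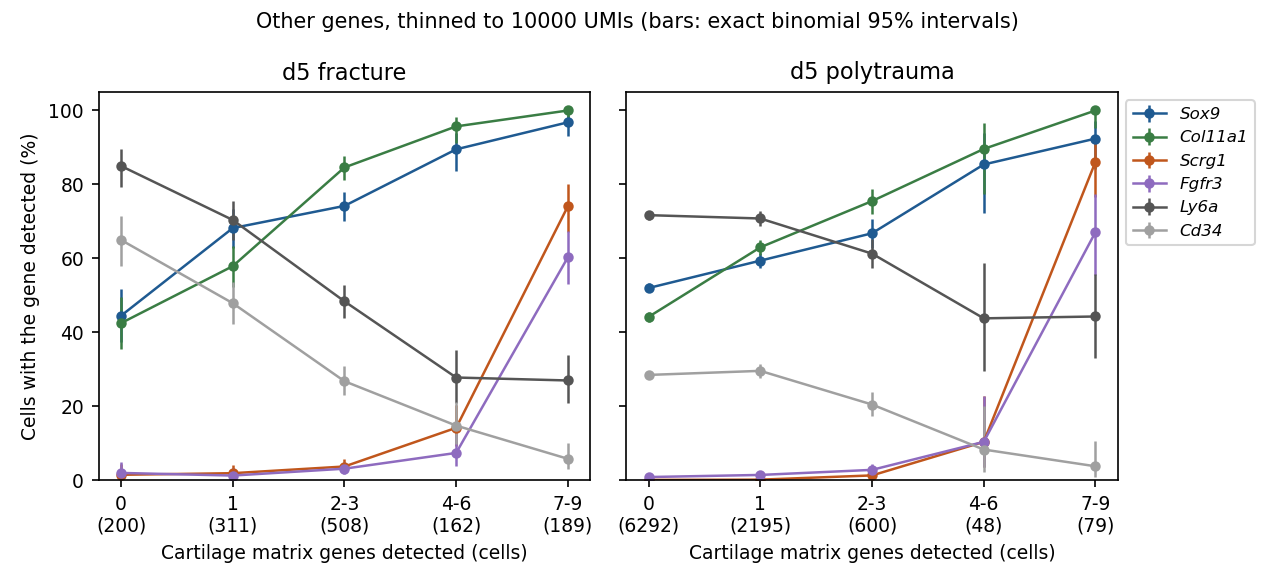
Share of d5 cells (percent, exact binomial 95% intervals) with Sox9, Col11a1, Scrg1, Fgfr3, Ly6a and Cd34 detected, by the number of cartilage matrix genes in the cell, after 10000 UMIs were drawn per cell. Scrg1 and Fgfr3 are under 15% up to 4 to 6 genes and at 74.1% and 60.3% with 7 to 9 genes in d5 fracture. Both are among the genes most correlated with the set in these same fracture cells.

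Cells with at least 7 of the genes were next set side by side between the injuries. The 9 genes were high in these cells by choice, so their levels are given as a description. Col2a1 stood at 8024 CPM in the 189 fracture cells and 7372 in the 79 polytrauma cells, a ratio of 0.919 (0.891 to 0.947), where the ratio over the whole libraries was 0.0473. Acan (0.963, 0.913 to 1.02) and Col9a2 (0.951, 0.856 to 1.06) had ratios whose intervals include 1. Hapln1 was higher in the polytrauma cells (1346 against 1029 CPM, 1.31-fold). Matn3 (590 against 906 CPM, a ratio of 0.651) and Cnmd (438 against 789, a ratio of 0.555) were lower. UMIs of a few cells weigh heavily in such sums, and the intervals do not cover the spread between cells or mice. Of the 189 fracture cells, 141 have a barcode that d5 polytrauma lists too and 48 do not, and the ratios here and below include both.

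Genes outside the set lay on both sides of 1, some close to it and others well away from it. Comp (1.03, 0.969 to 1.09), Fgfr3 (1.09, 0.872 to 1.36) and Scrg1 (0.899, 0.772 to 1.04) had intervals that include 1, and Col11a1 had a ratio of 0.779. Wwp2, which encodes a ubiquitin ligase and hosts the cartilage miRNA miR-140, had a polytrauma to fracture ratio of 0.502 (0.445 to 0.566), Sox9 0.505 (0.446 to 0.570), Matn4 0.460 and Ucma 0.384. Col1a1 was at 0.342 and Col3a1 at 0.564. Pth1r, the receptor of parathyroid hormone-related protein, was 1.51-fold higher in polytrauma cells, and so was Alpl, the phosphatase of mineralizing cartilage and bone (1.51-fold, 1.28 to 1.78). Ibsp was 2.76-fold higher, in 14 of 79 polytrauma and 35 of 189 fracture cells, with 332 of its 577 polytrauma UMIs in 1 cell. Col10a1, the collagen of hypertrophic cartilage, had 67 UMIs in 9 polytrauma cells and 25 in 7 fracture cells, with up to 40 and 18 UMIs in 1 cell. EGFP differed little (1.17-fold).

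**Figure D5:**
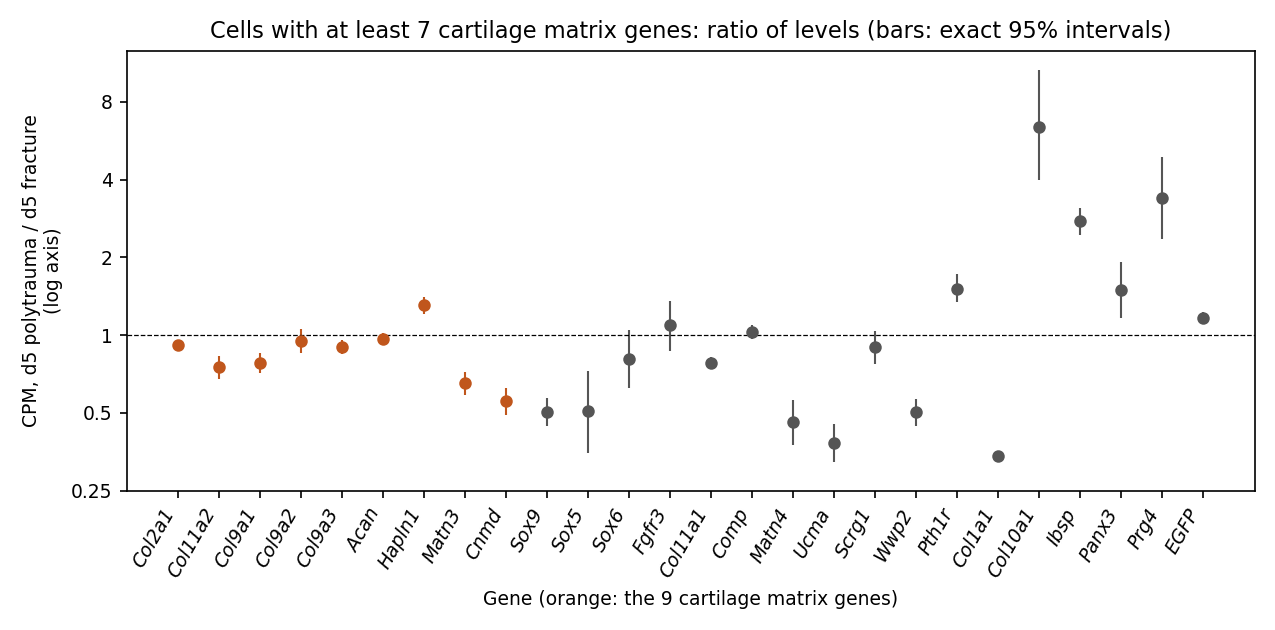
Ratio of d5 polytrauma to d5 fracture levels (log axis, exact 95% intervals for counting error) in cells with at least 7 cartilage matrix genes, 79 and 189 cells, for the 9 genes (orange) and 17 other genes (grey). Col2a1 lies at 0.919 and Acan at 0.963, while Cnmd lies at 0.555 and Col10a1 at 6.41. Spp1 (0.429) and Mmp13 (0.391) are not plotted.

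Col2a1 was frequent among dividing cells of d5 fracture. There 167 of 1438 cells had at least 2 dividing markers (Mki67, Top2a, Cenpf, Birc5, Cdk1 and Ube2c), and Col2a1 was in 84 of them (50.3%) against 20.7% of all cells, at 3772 CPM. At least 2 of the 9 genes were in 94 (56.3%), against 19.8% of cells without these markers. At d5 polytrauma the 2296 cells with dividing markers had Col2a1 in 36 (1.57%), against 1.58% of all cells, and at least 2 of the genes in 1.66%, against 2.24% of the others. Dividing cells were the deeper ones in both libraries, with a median of 43632.0 against 34491.0 UMIs in fracture and 21564.5 against 15143.0 in polytrauma. Shares are at 2000 UMIs per cell, and the part of depth in them was not tested, nor could the difference between the injuries be tested with 1 library each. In d5 fracture cells without a shared barcode Col2a1 was in 17 of 51 dividing (33.3%, 20.8 to 47.9) and 80 of 523 other cells (15.3%, 12.3 to 18.7).

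Cells with tenocyte markers held a smaller part of the Col2a1 UMIs at d5 than at d0. In d5 fracture 262 cells with tenocyte markers had Col2a1 in 29.0% and held 21.6% of its UMIs, though they were 18.2% of the cells. At d5 polytrauma 1498 cells (13.0%) held 20.8% of the Col2a1 UMIs and 36.6% of those of Col11a2. Fmod, which stands in the tenocyte list, is itself common in cells with at least 7 of the 9 genes. With the larger draw used within d5, it was in 99.5% of these cells in fracture and 98.7% in polytrauma. Scx, also in the list, was in 34.9% and 17.7%. The d5 cells with tenocyte markers can therefore include such cells, and their part in these shares was not tested. In d5 fracture the 741 cells with mesenchymal progenitor markers, 51.5% of all, held 4.75% of the Col2a1 UMIs, 14.3% of those of Acan and 14.6% of those of Col9a2. At d5 polytrauma the corresponding 50.4% of cells held 5.77%, 33.1% and 28.7%. Cells with at least 2 osteoblast markers were 5 and 4 at d5, of which 5 and 3 had at least 2 of the 9 genes.

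Regulators and further cartilage genes were read from lists chosen by name, with earlier results of these data known. Their counts, and the shares of all genes beside them, are therefore a description. Of the 15 chondrogenic regulators and receptors, 14 could be compared between d3 and d5 fracture, and 12 were at least 4-fold higher at d5 (against 15.4% of all genes) and 0 lower, or 10 with scaling by the median of ratios. Sox9 went from 90.6 to 377 CPM (4.17-fold, a log2 ratio of 1.38 with that scaling, short of the limit), Wwp2 from 19.0 to 191, Trps1 from 37.9 to 183 and Pth1r from 9.39 to 107. From d3 to d5 polytrauma 6 of 13 passed, against 7.74% of all genes, and 4 with that scaling. Sox9 stood at 112 and 126 CPM (1.12-fold, but a log2 ratio of -0.35 with that scaling) and Sox6 at 0.387 and 2.41. At d5, 7 of 14 were at least 4-fold lower in polytrauma than in fracture, against 5.24%. Sox9 was 3.00-fold lower there, less than any of the 9 matrix genes.

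The list of other cartilage matrix genes held members on both sides. Of 20 genes compared between d3 and d5 fracture 12 were at least 4-fold higher, against 15.4% of all genes, and 0 lower, against 1.57%. At d5 14 of 20 were at least 4-fold lower in polytrauma, against 5.24%, and 1, Prg4, was 4.15-fold higher, against 0.916%. Col11a1 went from 37.9 to 913 CPM after fracture, Comp from 51.9 to 685 and Fmod from 110 to 347. Cilp2 and Chad, present at d0 at 70.1 and 356 CPM, stood at 5.40 and 8.77 at d5 fracture. Of the relatives of the 9 genes, 6 of 16 were at least 4-fold higher from d3 to d5 fracture, against 15.4% of all genes (median log2 ratio 1.65). With scaling by the median of ratios 3 of 16 passed. That count does not stand clearly apart from the 15.4%, which was taken without this scaling. Vcan, the versican gene related to Acan, was 1.71-fold higher and Tnmd, the tendon relative of Cnmd, 3.17-fold. Matn4, related to Matn3, went from 2.18 to 221 CPM, while Matn1, abundant in many cartilages, had 30 UMIs at d5 fracture (0.578 CPM).

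Genes of sulfated glycosaminoglycan synthesis were also followed. Of 12 genes 5 were at least 4-fold higher at d5 than at d3 fracture, against 15.4% of all genes. Slc26a2, the sulfate transporter, went from 13.0 to 113 CPM (8.71-fold) and Papss2, which makes the sulfate donor, from 29.6 to 90.1 (3.05-fold), while Ugdh, which makes the sugar donor, stood at 332 and 365 CPM. From d3 to d5 polytrauma 1 of 12 passed, a share near the 7.74% of all genes. Of the hypertrophic cartilage genes 6 of 8 were at least 4-fold higher from d3 to d5 fracture and 5 of 8 after polytrauma, against 15.4% and 7.74% of all genes. At d5, 3 of 8 were at least 4-fold lower in polytrauma than in fracture, against 5.24%. As much higher were 0, against 0.916%. Alpl (84.6 CPM), Ibsp (78.7) and Panx3 (15.4) were present at d5 fracture, and Col10a1 was at 2.08 CPM. Of the 9 cartilage matrix degradation genes 4 were at least 4-fold higher from d3 to d5 fracture, against 15.4% of all genes. Mmp14 was among them (121 to 525 CPM), and 2 passed with scaling by the median of ratios. After polytrauma 0 of 9 passed, a count that does not stand apart from the 7.74% of all genes.

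The genes most like the set were found by their correlation, across d5 fracture cells, with the mean of the 9 genes. Among 9619 genes the first 10 outside the set were Scrg1 (r = 0.84), 3110079O15Rik (0.78), Ucma (0.75), Papss2, Cd24a and Wwp2 (0.74 each), Trpv4 (0.73), Fgfr3 (0.71), and Slc26a2 and Stk26 (0.69 each). 3110079O15Rik is the older symbol of Snorc, which encodes a chondrocyte membrane proteoglycan. In d5 polytrauma, which was not used for the ranking, the same genes had r of 0.80, 0.75, 0.56, 0.32, 0.63, 0.33, 0.52, 0.56, 0.31 and 0.41. Cspg4, of the mural list, had an r of 0.61 in d5 fracture. Sox9 ranked 68 with an r of 0.43, and Mki67 had an r of 0.30 in fracture and -0.02 in polytrauma. The lowest values were those of Ifitm3 (-0.62), Marcks and Fstl1 (-0.59 each).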

How the data were processed

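GFP+ cells of hindlimb muscle were sequenced as 3′ droplet libraries, 1 per condition from 2 pooled mice. The authors ran Cell Ranger (3.1.0 in the matrix headers, another version in the methods) against mm10 and deposited raw UMI counts per gene and barcode, without normalization. The submitters' processing notes also name Seurat 3.1.2. Of the 31055 gene identifiers, 30934 (99.6%) are in GENCODE M21. No column was left unmapped (0).

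Barcodes with 350 to 8000 genes, under 20% mitochondrial UMIs and at least 1000 UMIs were kept. Barcodes of d5 polytrauma also found in d5 fracture were left out. Totals per library were 17437190 to 201489765 UMIs. UMIs were summed per library and scaled to CPM, with exact Poisson, conditional binomial (ratios) and Clopper-Pearson (shares) 95% intervals, which cover counting error only. Ratios were compared for genes with at least 10 UMIs over a pair, and those of at least 4-fold were counted. No test was run, since each condition has 1 library. For shares, 2000 UMIs (10000 within d5) were drawn without replacement per cell, which left out 30 to 744 cells per library (98 and 2389 within d5). Cells were grouped by marker lists and not clustered, so a group is a range of marker counts and not a cell type. Scrublet in scanpy 1.11.5 called 0 to 40 cells per library by its automatic threshold, too few to be of use. Possible doublets were therefore kept, and the highest scores at 0.8% per 1000 cells were left out as an alternative.

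Named genes are the 9 members, up to 4 genes of each list by d5 fracture CPM with any other gene of a list that a sentence on a member needs, and the 10 genes most correlated with the members among those in at least 5% of d5 fracture cells. The members and lists were chosen with earlier results of these data known. The scripts, tested on simulated data, ran in Python 3.11.15 with matplotlib 3.10.9, pandas 2.3.3, scipy 1.17.1 and numpy 2.4.6.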

Additional observations from a re-analysis of the deposited data

Results flagged for a closer look

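The 338 barcodes left out of d5 polytrauma because d5 fracture lists them too were outside every comparison. The 9 cartilage matrix genes summed to 3522 CPM in them, against 228 CPM in the d5 polytrauma cells that were kept and 3620 CPM in d5 fracture.

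Col9a3 was the gene whose direction from d0 to d3 differed between the injuries, at 1.12 times the d0 level in d3 fracture (0.635 to 2.13) and 0.338 times in d3 polytrauma (0.172 to 0.694). The d0 value rests on 14 UMIs, the fracture interval includes 1, both ratios share the d0 library, and the difference was not tested.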

How the results depend on the processing

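No paired analysis was possible because each condition has 1 library. Of the 550 values recomputed, most kept their direction and size. Among those counted as main results 187 kept them, 44 moved and 4 reversed. Among the others 56 moved. With the conditions as in the deposited labels, 0 of the 9 genes were at least 4-fold higher and 6 lower from d3 to d5 fracture (median log2 ratio -2.13, 2.83% of all genes past 4-fold), 9 were higher and 0 lower in d3 polytrauma than in d3 fracture (7.25, 17.0%), 0 were higher and 9 lower from d3 to d5 polytrauma (-4.25, 6.16%), and 9 were higher and 0 lower in d5 polytrauma than in d5 fracture (4.90, 10.8%), and the shares of cells with at least 2 genes were 24.1% at d3 polytrauma and 0.0327% at d5 fracture. Scaling by the median of ratios gave median log2 ratios of 6.57 (d5 to d3 fracture), 4.38 (d5 to d3 polytrauma) and -4.10 (d5 polytrauma to d5 fracture). The last was -4.17 with the shared barcodes kept in d5 polytrauma, -3.06 without any barcode found in more than 1 library, which gave 6.32 for d5 to d3 fracture and 21.1% of d5 fracture cells with at least 2 genes, and -4.14 without the highest doublet scores. The share of cells with at least 2 genes depended on depth. Drawing 1000 UMIs gave 0.237% at d0, 0.143% at d3 fracture, 0 at d3 polytrauma, 18.5% at d5 fracture and 1.24% at d5 polytrauma. Drawing 5000 gave 5.23% at d0, 0.856% at d3 fracture, 43.3% at d5 fracture and 4.33% at d5 polytrauma, and not drawing gave 2.01%, 4.76%, 0.532%, 84.7% and 11.7% over the 5 conditions in the same order. A draw of 5000 leaves out every cell with fewer UMIs. Since the d0 median was 3640, its share there covers only the deeper d0 cells, and depth and choice of cells cannot be told apart. Counting a gene from 2 UMIs gave 0.180%, 0.0186%, 0, 13.4% and 0.810%. The share of d5 fracture cells with at least 7 genes was 11.9% at 5000 UMIs and 11.5% from 2 UMIs. Among genes in at least 20% of cells, 4 of the 10 genes most like the set remained. Leaving out the d5 fracture barcodes with under 10 times the UMIs they have in d5 polytrauma, an alternative chosen after seeing the data, left the counts of genes past 4-fold at their values. The split of d5 fracture cells by shared barcode and the values without 1 d3 fracture cell were also added after seeing the data. With 1 library per condition no replicate could be left out, and in the d0 library a count of 0 allows up to 0.172 CPM.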
